A study of Mus musculus with 4 samples.

Results

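The genes described here are 10 genes of the Wnt pathway whose products either restrain the pathway or carry its transcriptional output: Nkd1, Nkd2, Apcdd1, Axin2, Notum, Znrf3, Rnf43, Lef1, Tcf7 and Sp5. They were taken by name from a table of 54446 genes, and each name matched 1 row. RNA was sequenced from endothelial cells, which form the lining of vessels, taken by cell sorting from retinas of C57BL/6 mice whose titles carry the age P16, which in mouse notation is postnatal day 16. The 4 libraries held 100 sorted cells each: 2 came from control mice and 2 from mice that the titles name Zeb1-CKO and the genotype field names a Zeb1 knockdown, with Zeb1 encoding a zinc-finger repressor of epithelial genes. The sources used here do not give the Cre driver, the Zeb1 allele, the controls' own alleles or whether animals were pooled, so replicates may be technical and each p-value reflects no more than the variation among these 4 libraries.

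In canonical Wnt signalling, a ligand bound to a Frizzled receptor and an LRP co-receptor stops the destruction of beta-catenin, which then enters the nucleus and works with the DNA-binding factors of the TCF/LEF family. Many genes switched on in this way encode brakes on the pathway, so their RNA is widely read as a measure of its activity. In retinal vessels the main ligand is norrin, which acts through Frizzled-4, Lrp5 and Tspan12, and the pathway is needed for vessel growth and for the blood-retina barrier. Nkd1 and Nkd2 encode the Naked cuticle proteins, which bind Dishevelled, and Apcdd1 encodes a membrane protein that binds Wnt and LRP. Axin2 is the scaffold of the beta-catenin destruction complex that Wnt itself induces, Notum is an enzyme that removes the lipid from Wnt ligands, and Znrf3 and Rnf43 are ubiquitin ligases that clear Frizzled from the cell surface. Lef1 and Tcf7 are TCF/LEF factors and Wnt targets themselves, and Sp5 is a zinc-finger factor induced by Wnt.

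Promoter sequences of 3 of these genes are shown because Nkd1 changed most among the 10, Sp5 had higher values in Zeb1-CKO cells, and a Lef1 start is the other one with the core of the TCF/LEF motif. RefSeq windows on build GRCm38.p6, the build also called mm10, were found for 7 of the 10 genes (12 windows), all but Apcdd1, Notum and Znrf3. Each sequence holds the 250 bases before a RefSeq start on the coding strand. Capitals mark TCAAAG, the TCF/LEF core, or CAGGTG, an E-box of the kind ZEB proteins bind, with each motif searched on both strands, so that TCAAAG on the other strand reads CTTTGA. The Nkd1 window is chr8:88527383-88527632, the Sp5 window is chr2:70474673-70474922 and the Lef1 window is chr3:131156044-131156293, all on the plus strand.
Nkd1: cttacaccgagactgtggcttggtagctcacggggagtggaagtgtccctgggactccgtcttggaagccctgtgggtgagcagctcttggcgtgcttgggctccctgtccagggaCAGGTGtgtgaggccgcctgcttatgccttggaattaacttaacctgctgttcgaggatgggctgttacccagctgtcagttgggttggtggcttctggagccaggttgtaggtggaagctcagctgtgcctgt
Sp5: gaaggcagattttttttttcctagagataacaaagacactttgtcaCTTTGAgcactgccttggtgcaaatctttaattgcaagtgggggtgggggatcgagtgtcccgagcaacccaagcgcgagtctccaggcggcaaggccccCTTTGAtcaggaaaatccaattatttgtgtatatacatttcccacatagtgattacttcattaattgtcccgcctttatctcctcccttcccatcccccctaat
Lef1: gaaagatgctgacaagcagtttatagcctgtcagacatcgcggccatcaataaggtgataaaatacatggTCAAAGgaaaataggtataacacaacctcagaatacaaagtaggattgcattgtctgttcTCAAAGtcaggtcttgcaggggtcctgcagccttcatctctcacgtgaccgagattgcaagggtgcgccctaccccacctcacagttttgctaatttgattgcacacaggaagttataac

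Counted from the start, the Nkd1 window held 1 CAGGTG at bases -134 to -129 and no TCAAAG. The Sp5 window held TCAAAG at bases -204 to -199 and -104 to -99, both on the other strand, and the Lef1 window held it at bases -180 to -175 and -120 to -115. Neither motif overlapped the other. TCAAAG stood in 2 of the 12 windows and in 13.8% of all 32851 RefSeq windows of that length, and CAGGTG in 1 of the 12 and in 17.2% of all. These matches describe the letters of the windows and were not tied to a measured binding site. The Nkd1 and Lef1 windows shown lie inside the annotated genes, downstream of the start that the expression table lists.

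The deposited values are FPKM, a fragment density per transcript length with each library scaled to its total, and can be compared between genes. Between libraries they compare less surely, since a large change in a few genes shifts all others. Library sums ran from 283814 to 294276 FPKM. Steps between low values give estimated depths of 20600000 and 11200000 fragments in control libraries 1 and 2 and of 21900000 and 16800000 in Zeb1-CKO libraries 1 and 2, so that 1 fragment on a transcript of 2000 bases is worth 0.0228 to 0.0447 FPKM. Finer steps also occur, so the absolute depths are uncertain. The shallowest library had 0.511 of the deepest one's estimate. Zeb1 was at 10.7 and 11.1 FPKM in control cells, against 8.66 and 7.07 FPKM in Zeb1-CKO cells, a difference that did not pass the test (limma's adjusted p = 0.235). A value over the whole gene cannot separate a deleted part, so it is a limited check of the labels. All 18 endothelial markers were present in every library, with sums of 4632 to 5650 FPKM, and Cldn5 and Esam were the most abundant. Pericyte markers, led by Rgs5 and Higd1b, summed to 2493 and 2022 FPKM in control cells, against 1725 and 1928 FPKM in Zeb1-CKO cells. Smooth-muscle markers, led by Myl9 and Acta2, summed to 554 and 408 against 242 and 318 FPKM, and red-cell genes, led by Hba-a1 and Hbb-bs, to 2729 and 3298 against 746 and 1409 FPKM. Epithelial genes summed to 5.24 and 2.08 FPKM in control cells, against 589 and 657 FPKM in Zeb1-CKO cells.

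In control cells the 10 genes spanned a wide range of levels. Apcdd1 was far the most abundant, with 100.4 and 111 FPKM, above 97.3% of the fitted genes. Lef1 at 18.2 and 21.6 FPKM, Nkd1 at 15.5 and 17.1 FPKM and Tcf7 at 16.0 and 16.5 FPKM followed. Lef1 lay above Nkd1 and Tcf7 in both libraries, while Nkd1 and Tcf7 overlapped. Znrf3 at 10.2 and 9.64 FPKM and Nkd2 at 3.50 and 4.72 FPKM came next. Sp5 at 0.968 and 1.38 FPKM, Axin2 at 0.754 and 0.935 FPKM, Notum at 0.931 and 0.405 FPKM and Rnf43 at 0.102 and 0.00745 FPKM were low, and Axin2 and Notum overlapped. Axin2, often used as the general readout of the pathway, thus had under 1 FPKM in both control libraries, and the Frizzled-clearing ligase present in these cells was Znrf3 rather than its relative Rnf43.

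**Figure D1:**
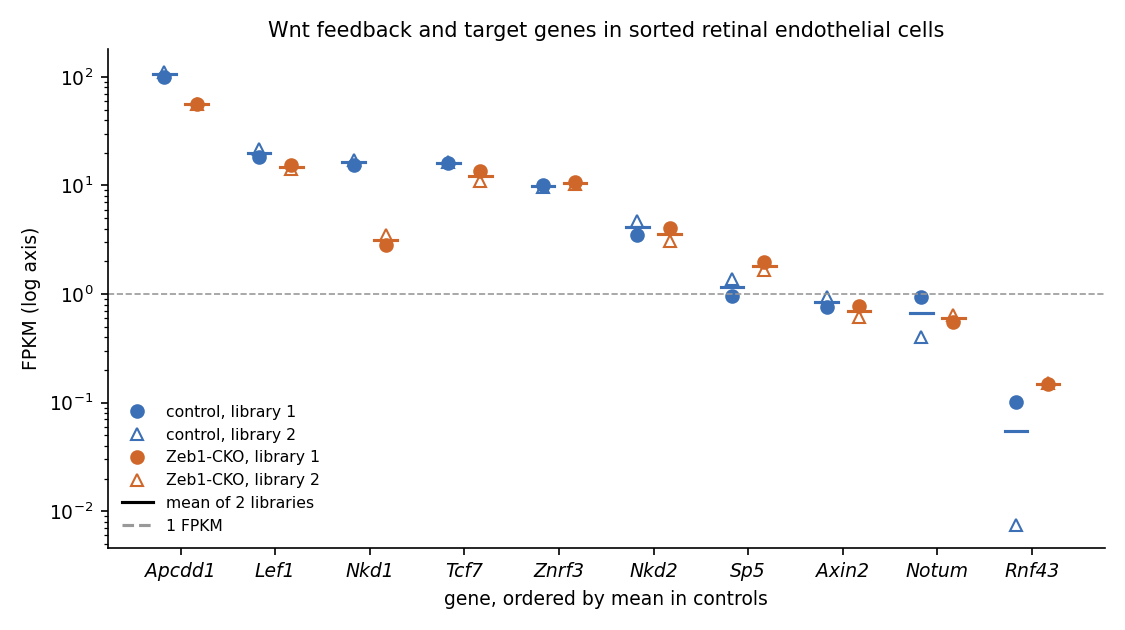
FPKM (log axis) of the 10 genes in each library, ordered by the mean in controls, with bars at the mean of 2 libraries and a dashed line at 1 FPKM. Nkd1 drops from 15.5 and 17.1 to 2.83 and 3.51 FPKM and Apcdd1 from 100.4 and 111 to 56.6 and 56.7 FPKM, while the points of most other genes lie close together.

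The comparison asks how these genes differ when Zeb1 is targeted in the animal. Nkd1 and Apcdd1 fell, and the other genes did not pass the test. Of the 10, 7 reached the mean of 1 FPKM over the 4 libraries that was needed for the fit. Of these 7, 2 were lower, 0 were higher and 5 did not pass, by limma's moderated fit to log2(FPKM + 1), with p-values adjusted by Benjamini-Hochberg over 13651 fitted genes and a threshold of 0.05. Over all fitted genes, 123 or 0.901% were called lower and 304 or 2.23% higher, 3.13% in either direction; with libraries scaled to the summed endothelial markers the counts were 214 lower and 294 higher. The median log2 fold change was -0.38 over the 7 genes and 0.02 over all fitted genes. Control and Zeb1-CKO libraries were fully apart in 6 of the 7, 4 lower and 2 higher in Zeb1-CKO cells, against 22.3% of all fitted genes lower, 27.1% higher and 49.4% either way. Fold changes on this scale understate those of low genes. The 10 genes were chosen with earlier results of these data known, so their shares are not independent of the data.

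Nkd1 (ENSMUSG00000031661.12, chromosome 8, 88521354 to 88594884, mm10) was at 15.5 and 17.1 FPKM in control libraries 1 and 2 and at 2.83 and 3.51 FPKM in Zeb1-CKO libraries 1 and 2. Both Zeb1-CKO libraries lay far below both controls, and the spread within each genotype was small beside the gap. The control mean of 16.3 ± 1.11 FPKM was 5.15-fold above the Zeb1-CKO mean of 3.17 ± 0.481 FPKM (SD, n = 2 each). On the log2(FPKM + 1) scale the change was -2.06 (SE 0.16, 95% interval -2.45 to -1.67, limma's adjusted p = 0.00382). Among the 123 genes called lower it ranked 16 by this change, and 0.147% of all fitted genes had a lower value. Nkd1 was also called in each of 16 alternative analyses, with log2 changes of -2.33 to -1.38 and adjusted p from 0.000273 to 0.0483, the latter without Zeb1-CKO replicate 1; the change of -1.38 came with a pseudocount of 5, which compresses low levels. Divided by the summed endothelial markers and rescaled, its values were 17.4 and 16.5 in controls against 2.83 and 3.23 in Zeb1-CKO libraries. Most of that sum was Cldn5, with 2692 of 4632 and 3428 of 5383 FPKM in controls. In Zeb1-CKO libraries it was 3133 of 5212 and 3500 of 5650 FPKM. Cldn5 also stands in the list of vascular targets below, so this scaling rests largely on 1 gene of that list.

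Nkd2 (chromosome 13, 73818534 to 73847631), the paralog of Nkd1, was at 3.50 and 4.72 FPKM in control cells, against 4.05 and 3.06 FPKM in Zeb1-CKO cells. These ranges overlapped, and the log2 change was -0.17 (95% interval -0.67 to 0.34, limma's adjusted p = 0.725); without control replicate 2 its sign turned, to 0.00819. The ratio of Nkd1 to Nkd2 was 4.43 and 3.62 in control cells, against 0.699 and 1.15 in Zeb1-CKO cells. Nkd1 thus outweighed its paralog in control cells and stood at about the same level in Zeb1-CKO cells, where the libraries of the 2 genes overlapped. The log2 ratio differed by -2.16 between genotypes, with a two-sided exact permutation p of 0.333, the smallest that 4 libraries allow. In the order of the 10 genes Nkd1 went from rank 3 in controls to rank 6 in Zeb1-CKO cells, and the ranks of Apcdd1, Lef1, Sp5, Axin2, Notum and Rnf43 were the same in both.

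Apcdd1 (ENSMUSG00000071847.12, chromosome 18, start at 62922327 in the deposited table) was at 100.4 and 111 FPKM in control cells, against 56.6 and 56.7 FPKM in Zeb1-CKO cells. The Zeb1-CKO libraries were nearly equal and both below the controls, a 1.87-fold lower mean. The log2 change was -0.89 (SE 0.13, 95% interval -1.21 to -0.57, limma's adjusted p = 0.0298), below that of all but 1.87% of fitted genes. The log2 change ran from -1.01 to -0.81 over the 16 alternatives. The call ended without any 1 of the 4 libraries (adjusted p of 0.0639 and 0.0990 without control replicate 1 or 2, and 0.151 and 0.146 without Zeb1-CKO replicate 1 or 2), with the replicate block (0.0969), with no filter on low values (0.141) and with no intensity trend (0.0513). Within a library, Apcdd1 was at 6.466 and 6.499 times the Nkd1 level in control cells and at 19.99 and 16.16 times in Zeb1-CKO cells (log2 ratio higher by 1.47, exact permutation p = 0.333).

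Pericyte, smooth-muscle and red-cell markers were lower beside Nkd1 and Apcdd1, by 1.24-fold, 1.72-fold and 2.80-fold between the means of their sums. All 10 pericyte markers, all 5 fitted smooth-muscle markers and all 5 fitted red-cell genes had negative log2 changes. Of these 20 genes only Tagln, of the smooth-muscle list, was called, while 4, 4 and 5 of the lists had an unadjusted limma p under 0.05. Of 9 fitted microglial markers 8 had negative log2 changes, with 0 of 9 called and 6 at an unadjusted limma p under 0.05, while the list's sum was 73.0 and 143 against 112 and 96.7 FPKM. Epithelial genes rose beside them, with 11 of 11 fitted members called higher. Over all fitted genes, 47.2% had negative log2 changes and 17.9% an unadjusted p under 0.05, while 0.901% were called lower and 2.23% higher. The part of these cell types in the falls of Nkd1 and Apcdd1 was not tested, and in bulk libraries fewer cells of a type and less RNA per cell cannot be told apart. The lists' median log2 changes were -0.32 for pericytes, -0.73 for smooth muscle, -1.54 for red cells and -1.20 for microglia, beside -2.06 for Nkd1 and -0.89 for Apcdd1.

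The TCF/LEF genes Lef1 and Tcf7 had lower values in Zeb1-CKO cells by amounts that did not pass the test. Lef1 (chromosome 3, 131110471 to 131224356) was at 18.2 and 21.6 FPKM in control cells, against 15.5 and 14.1 FPKM in Zeb1-CKO cells, a log2 change of -0.40 (95% interval -0.77 to -0.03, limma's adjusted p = 0.249). Tcf7 (chromosome 11, 52252371 to 52283014) was at 16.0 and 16.5 FPKM in control cells, against 13.5 and 11.1 FPKM in Zeb1-CKO cells, a log2 change of -0.38 (95% interval -0.75 to -0.01, adjusted p = 0.272). For both genes every Zeb1-CKO library lay below every control, and the change stayed negative in all 16 alternatives without being called in any. Unadjusted, limma's p was 0.0392 for Lef1 and 0.0472 for Tcf7, and 17.9% of all fitted genes had an unadjusted p under 0.05. Their ratio hardly moved: Lef1 was at 1.14 and 1.31 times the Tcf7 level in controls and at 1.15 and 1.27 times in Zeb1-CKO libraries. Lef1 is also less certain than the rest, since 1208 of its 8788 exon bases are shared with Gm43352 on the opposite strand, in libraries whose kits do not mark strand; Gm43352 was at 8.23 and 10.97 against 7.76 and 7.34 FPKM.

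Neither the ligase gene Znrf3 nor Sp5 passed the test. Znrf3 (chromosome 11, 5276324 to 5444847) was at 10.2 and 9.64 FPKM in control cells, against 10.7 and 10.3 FPKM in Zeb1-CKO cells, a log2 change of 0.07 (95% interval -0.26 to 0.40, limma's adjusted p = 0.826) that turned to -0.04 with scaling to endothelial markers. This interval leaves out a fall of the size seen for Apcdd1 or Nkd1. Sp5 (chromosome 2, 70474923 to 70477729) was at 0.968 and 1.38 FPKM in control cells, against 1.97 and 1.66 FPKM in Zeb1-CKO cells, higher in both, with a log2 change of 0.38 (95% interval -0.13 to 0.89, adjusted p = 0.411). Sp5 has 1 annotated transcript, and these values correspond to about 42, 32, 91 and 59 fragments in control 1, control 2, Zeb1-CKO 1 and Zeb1-CKO 2 if a step is 1 fragment. Amplified reads carry no molecular identifiers, so fewer molecules may lie behind them.

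The 3 genes under the filter were read from a fit with no filter, in which 0.218% of 38986 genes were called. Axin2 (chromosome 11, 108920349 to 108950783) was at 0.754 and 0.935 FPKM in control cells, against 0.783 and 0.621 FPKM in Zeb1-CKO cells, a log2 change of -0.12 (95% interval -0.73 to 0.49, limma's adjusted p = 0.857). Notum (chromosome 11, 120653788 to 120661175) was at 0.931 and 0.405 FPKM in control cells, against 0.553 and 0.642 FPKM in Zeb1-CKO cells, and Rnf43 (chromosome 11, 87662722 to 87735539) at 0.102 and 0.00745 against 0.149 and 0.151 FPKM. Axin2 and Notum overlapped between genotypes, Rnf43 was higher in both Zeb1-CKO libraries, and none of the 3 was called. Notum shares 708 of its 2408 exon bases with Notumos and 210 with Myadml2os, and Axin2 209 of 5506 with Gm11670, all on the opposite strand. Notumos was listed at 0 FPKM in every library but control 2, where it was at 0.0674 FPKM. Myadml2os was at 0 FPKM in every library but Zeb1-CKO 2, with 0.115 FPKM, and Gm11670 in every library but control 1, with 0.137 FPKM. On the log2(FPKM + 1) scale such low genes can show little change, and the interval for Axin2 spans both falls and rises.

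**Figure D2:**
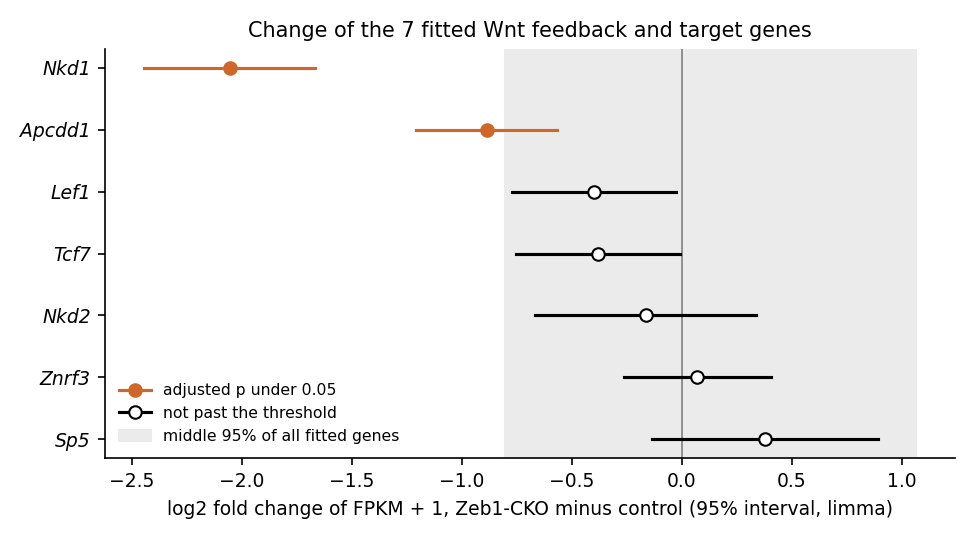
Log2 fold change of FPKM + 1 (Zeb1-CKO minus control) with limma's 95% interval for the 7 fitted genes, beside the middle 95% of all fitted genes in grey. Nkd1 at -2.06 and Apcdd1 at -0.89 lie outside the grey band, which runs from -0.81 to 1.07, and the other 5 lie inside it.

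**Figure D3:**
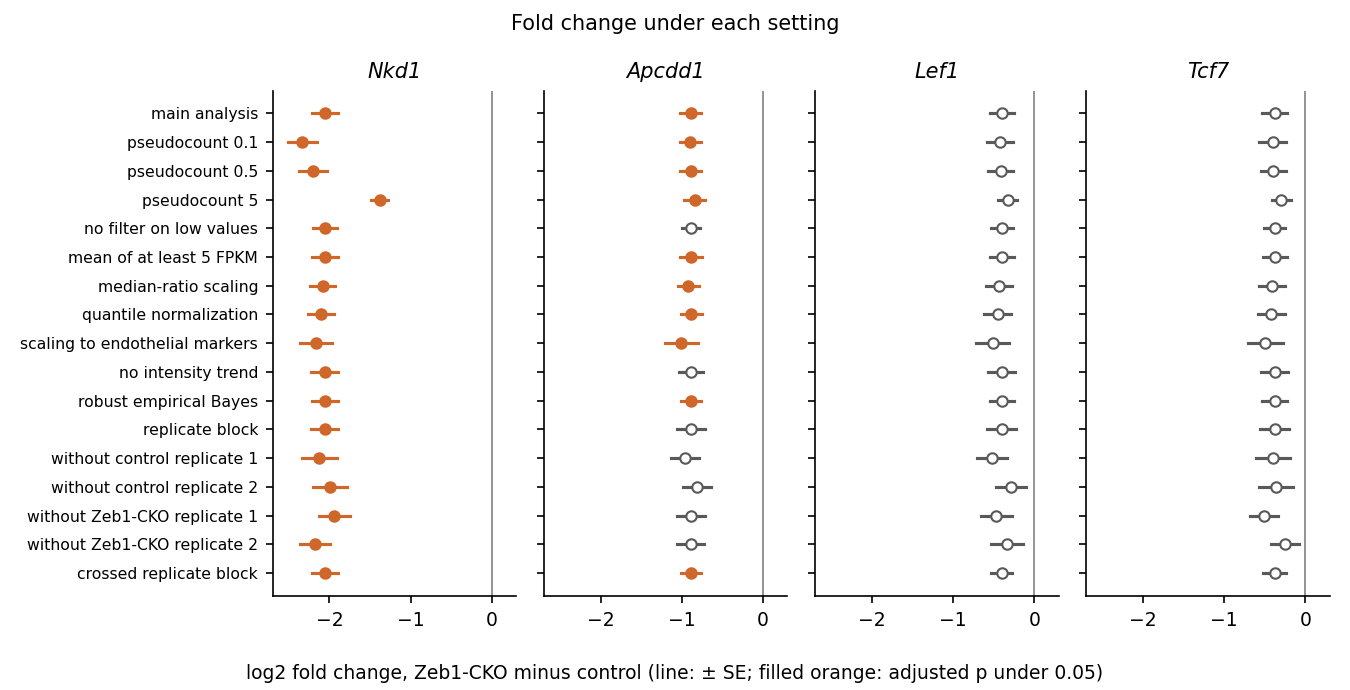
Log2 fold change (± SE) of Nkd1, Apcdd1, Lef1 and Tcf7 in the main analysis and in 16 alternatives, filled where the adjusted p is under 0.05. Nkd1 is filled in every row, Apcdd1 loses its call without any 1 library, and Lef1 and Tcf7 stay between -0.52 and -0.25 without a call.

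The genes whose profiles over the 4 libraries lay closest to these were found by Euclidean distance of centred log2(FPKM + 1) values among 6629 other genes with a mean of 5 FPKM or more. For Nkd1 they were Wfdc1, Eno1b and Cd83, at distances of 0.276, 0.396 and 0.424. Wfdc1 was at 34.5 and 33.9 FPKM in control cells, against 8.02 and 10.2 FPKM in Zeb1-CKO cells. Eno1b is known as a close copy of Eno1, so its value is uncertain; the likeness of the copies was not measured here. For Apcdd1 they were Arid5b, Klf2 and Cdkn2b, at 0.0657, 0.0851 and 0.0925, with Klf2, a flow-responsive transcription factor gene, at 143 and 146 against 77.1 and 79.1 FPKM. For Lef1 they were Tob2, Mindy4 and Egflam, at 0.0301, 0.0400 and 0.0486.

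Other genes of the pathway were taken from 7 lists with 148 genes in the table, of which 98 were fitted. Of these, 3 were called lower and 1 higher, or 3.06% and 1.02%, against 0.901% and 2.23% of all fitted genes, and their median log2 change was -0.06. Among the 26 genes for ligands and their secretion, 4 were fitted and none called (0 with an unadjusted p under 0.05); Wls, the carrier of Wnt proteins, was at 16.9 and 15.1 FPKM in control cells, against 11.1 and 13.4 FPKM in Zeb1-CKO cells, and Porcn, the enzyme that lipidates them, at 4.63 and 4.23 against 4.50 and 6.71 FPKM.

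Of 15 fitted receptors and co-receptors none was called and 4 had an unadjusted p under 0.05, against 17.9% of all fitted genes. Tspan12, the norrin co-activator, was at 83.9 and 77.2 FPKM in control cells, against 85.8 and 97.6 FPKM in Zeb1-CKO cells, and Fzd6 at 55.8 and 67.7 against 58.6 and 55.5 FPKM. Fzd4, the norrin receptor gene, was at 25.9 and 25.5 against 26.6 and 22.3 FPKM, and Lrp5 at 1.70 and 0.805 against 0.895 and 1.09 FPKM, both overlapping between genotypes. The Wnt7 co-receptor genes Adgra2 and Reck had lower values in both Zeb1-CKO libraries. Adgra2 was at 8.68 and 10.9 against 6.11 and 3.74 FPKM and Reck at 6.16 and 5.95 against 3.16 and 3.83 FPKM (limma's adjusted p = 0.130 and 0.101). Fzd9, with the largest change of the list, was higher in both, at 2.97 and 4.37 against 6.08 and 11.5 FPKM (0.166). With Ryk, lower at 4.56 and 4.94 against 3.50 and 3.09 FPKM (0.239), these were the 4 with an unadjusted p under 0.05.

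Secreted and surface inhibitors had mostly higher values in Zeb1-CKO cells, by amounts that did not pass the test. Of 8 fitted members 6 had higher values in both Zeb1-CKO libraries, each with an unadjusted p under 0.05, against 27.1% of all fitted genes with such libraries and 17.9% with such a p. None was called, and the median log2 change was 0.68. Dkk3, a Dickkopf-family gene, was at 67.2 and 67.8 FPKM in control cells, against 92.2 and 107 FPKM in Zeb1-CKO cells (limma's adjusted p = 0.110), and the other abundant member, Kremen1, at 9.09 and 7.74 against 6.97 and 7.30 FPKM (0.532). Inhibitors that bind Wnt directly were scarcer. Sfrp2 was at 1.74 and 1.56 against 3.72 and 3.67 FPKM (0.0638), and Wif1 at 0.287 and 0.212 against 2.92 and 1.51 FPKM (0.0751, and 0.0489 with scaling to endothelial markers). Dkk3 also stands among the markers of Müller glia and astrocytes, whose sum was 521 and 551 FPKM in control cells against 581 and 611 FPKM in Zeb1-CKO cells. That sum includes Dkk3 itself, so its rise is not separate from that of Dkk3. The part of those cells in these values was not tested.

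The 19 genes for beta-catenin, its destruction complex and proteins that act on that complex were all fitted and none was called (0 with an unadjusted p under 0.05). Ctnnb1, which encodes beta-catenin, was at 118 and 168 FPKM in control cells, against 182 and 151 FPKM in Zeb1-CKO cells, and the casein kinase gene Csnk1d at 36.5 and 41.7 against 38.3 and 46.0 FPKM. Among 17 fitted nuclear cofactors none was called and 2 had an unadjusted p under 0.05, against 17.9% of all fitted genes. Sox7, which encodes an endothelial SOX factor that can bind beta-catenin, was at 222 and 216 against 214 and 219.7 FPKM. Ctnnbip1, whose product keeps beta-catenin from TCF factors, was at 42.3 and 43.8 FPKM in control cells, against 61.0 and 66.8 FPKM in Zeb1-CKO cells (limma's adjusted p = 0.0938). Of the other TCF/LEF genes, Tcf7l1 was lower, at 7.25 and 6.79 against 5.30 and 4.98 FPKM (limma's adjusted p = 0.241). Tcf7l2 overlapped between genotypes, at 3.99 and 5.22 against 4.94 and 6.28 FPKM, with a log2 change of 0.24 (limma's adjusted p = 0.573).

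Of 18 other fitted Wnt targets from various tissues 1 fell, 17 did not pass and the median log2 change was 0.04. That was 5.56% called lower and 0% higher, against 0.901% and 2.23% of all fitted genes. An unadjusted limma p under 0.05 was reached by 8 of the 18, against 17.9% of all fitted genes. Tnfrsf19, which encodes the receptor TROY, fell from 29.3 and 27.2 FPKM to 9.78 and 13.3 FPKM, a log2 change of -1.24 (limma's adjusted p = 0.0287). Its call ended without any 1 library, at log2 changes of -1.44 to -1.03, with the replicate block (adjusted p = 0.0701) and with no filter on low values (0.150). Ccnd1, the cyclin D1 gene and a textbook target, was at 30.0 and 26.0 FPKM in control cells, against 68.1 and 46.4 FPKM in Zeb1-CKO cells (limma's adjusted p = 0.0770). Adamtsl2 went the other way, at 11.7 and 13.9 against 6.86 and 6.86 FPKM (0.0544). It was called in some alternatives, such as scaling to endothelial markers. Cd44 was at 4.26 and 5.46 against 2.36 and 2.70 FPKM (0.107). Of the 8 genes, Ccnd1, Prox1 and Slc1a5 were higher, and Tnfrsf19, Adamtsl2, Cd44, Wisp1 and Isyna1 were lower. The most abundant members were Cyr61 at 587 and 628 against 671 and 650.0 FPKM and Isyna1 at 71.4 and 76.6 against 53.4 and 62.3 FPKM.

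Of 19 genes that depend on Wnt or norrin in vessels of the nervous system or mark their barrier state, all fitted, 2 fell, 1 rose and 16 did not pass. That was 10.5% called lower and 5.26% higher, against 0.901% and 2.23% of all fitted genes. An unadjusted limma p under 0.05 was reached by 9 of the 19, against 17.9% of all fitted genes. Among these 9 only Cldn3 had a higher value. Spock2, a proteoglycan gene, fell from 211 and 221 FPKM to 83.4 and 97.4 FPKM (log2 change of -1.25, limma's adjusted p = 0.0150), a call lost with no filter (0.109) and when either Zeb1-CKO library was left out, at -1.14 without replicate 1 and -1.36 without replicate 2. The transporter gene Slco1c1 fell from 49.6 and 48.2 FPKM to 26.8 and 28.7 FPKM (-0.79, 0.0377). That call was lost without any 1 library, at -0.84 to -0.75, with the replicate block (0.117), with no intensity trend (0.0644) and with no filter (0.140). Cldn3, which is also an epithelial claudin gene, rose from 0.154 and 0.211 FPKM to 6.89 and 7.56 FPKM, beside the epithelial genes that rose. In 10 of the 19 both Zeb1-CKO libraries lay below both controls and in 1 above, against 22.3% and 27.1% of all fitted genes, and the median log2 change was -0.23. The 10 include Plvap, a marker of leaky vessels that the pathway holds down, at 59.7 and 49.7 against 43.7 and 40.1 FPKM. Plvap is also among the 9, so both counts and the median mix genes with opposite expected directions. The most abundant members did not pass: Cldn5 was at 2692 and 3428 against 3133 and 3500.4 FPKM, and the glucose transporter gene Slc2a1 at 808 and 892 against 729 and 713 FPKM.

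**Figure D4:**
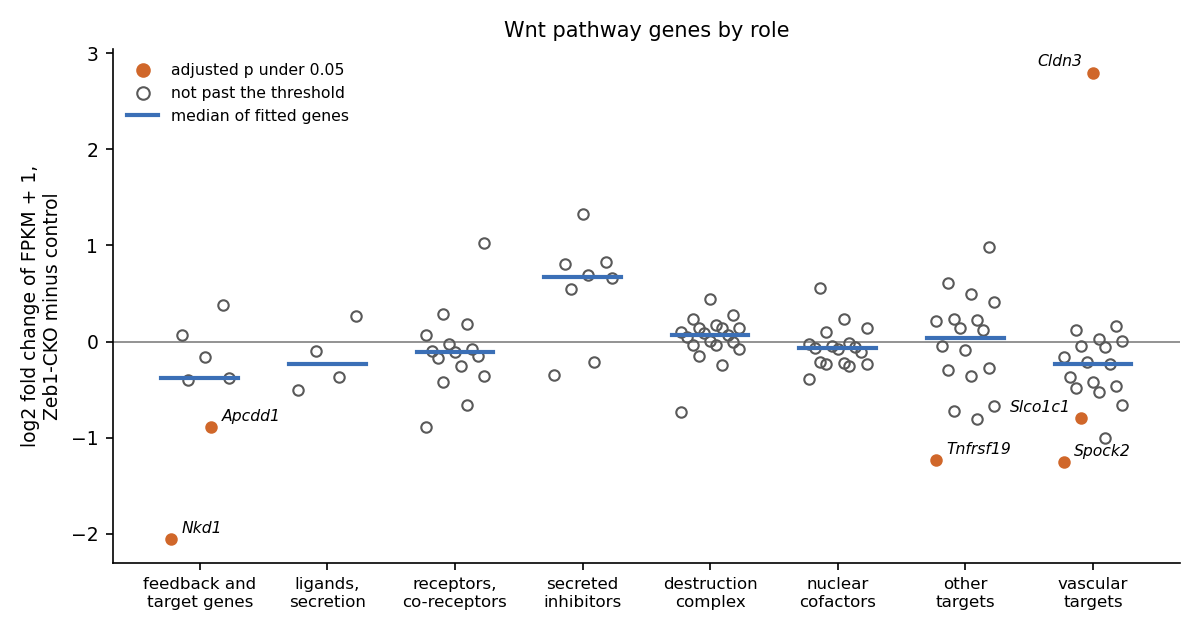
Log2 fold change of FPKM + 1 (Zeb1-CKO minus control) for every fitted gene of the 8 Wnt groups, with orange for an adjusted p under 0.05 and a bar at each group's median. Nkd1, Apcdd1, Tnfrsf19, Spock2 and Slco1c1 are called lower and Cldn3 higher, and the secreted inhibitors have a median of 0.68.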

How the data were processed

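RNA was sequenced from 2 control and 2 Zeb1-CKO libraries of 100 sorted retinal endothelial cells. Per the labels' protocols, cDNA was made with a SMART-Seq v4 kit and sequenced in paired 150-base reads; neither kit named marks strand. Per the submitters' processing notes, Trimmomatic 0.36, HISAT2 2.1.0 and StringTie 1.3.3 were used with build mm10; the sources used here give no settings or annotation. The authors deposited FPKM per gene; the unit was read from the values and tools. FPKM are not counts, so no count test was run, and a large change in a few genes shifts all others.

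Computed here: a genotype-only limma model (limma 3.58.1 under R 4.3.3, trended prior variance) of log2(FPKM + 1) for the 13651 genes whose mean reached 1 FPKM, calling an adjusted p under 0.05. Tests ran on simulated data first. Gene spans come from GENCODE M21; of the table's identifiers 53229 matched in version, Apcdd1's not. No member had a copy of at least 95% identity over 80% of a transcript (BLAST 2.17.0, at least 200 bases). The table's 4 sample columns were matched by name. Alternatives were other pseudocounts (0.1, 0.5, 5), filters, scalings and variance models, the replicate block, and each library left out.

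The members and lists were chosen with earlier results of these data known. Named were all members, Zeb1, called genes of the pathway lists, the 2 most abundant of each list (of marker lists, where lower or higher lists are discussed), and 3 genes most like each called member and Lef1, leaving out predicted genes. Fzd4, Lrp5, Adgra2, Reck, Sfrp2, Wif1, Ccnd1, Tagln, Tcf7l1, Tcf7l2 and Plvap were added after their values were seen. The same holds for Fzd9, Ryk, Adamtsl2, Cd44, Prox1, Slc1a5, Wisp1 and Tfrc. Further marker lists, summed per library, showed Müller glia and astrocyte genes (led by Apoe and Vim) at 521 to 611 FPKM, photoreceptor genes at 11.6 to 106 FPKM and retinal neuron genes at 32.0 to 57.7 FPKM; the leading genes of these 2 lists and of the microglial list are not reported here. Figures were drawn with matplotlib 3.10.9.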

Additional observations from a re-analysis of the deposited data

How the results depend on the processing

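Over 16 alternatives for 7 fitted members, the fall of Nkd1 kept its call in all. Of 508 comparisons of a single gene's change with an alternative, 473 kept direction and side of the threshold, 23 lost a call, 1 gained one and 11 turned sign, each at an adjusted p over 0.8. The cause of these changes was not tested. Leaving out a library leaves fewer samples, and its lone partner is assumed to vary like the others. Adamtsl2 and Tfrc were not among the single genes compared.

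The 2 members called became 1 (Nkd1) with no filter on low values, with no intensity trend, with the replicate block and without any library (1 to 1). The 4 other pathway genes called became 1 with no filter, 7 with scaling to endothelial markers, 2 with the replicate block and 1 to 2 without a library. Over all genes, 123 called lower became 15 with no filter, 214 with endothelial scaling, 38 with the replicate block and 15 to 59 without a library; 304 called higher became 70 with no filter, 169 with a mean of at least 5 FPKM, 155 with the replicate block and 44 to 224 without a library. The labels do not say that replicate numbers pair libraries, and the deviations of same-numbered libraries correlated at -0.118 over 13651 genes. With the numbers crossed, an alternative chosen after seeing the data, 149 genes were lower, 306 higher, 2 members and 5 other pathway genes called.

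Over the libraries left out, the log2 change ran from -0.338 for Nkd2, -0.245 for Fzd6, -0.0305 for Sox7, -0.198 for Fzd4 and -0.441 for Lrp5 up to the positive values below, and from 0.485 for Ctnnb1, 0.231 for Csnk1d and 0.299 for Cldn5 down to the negative ones. Without control replicate 2, it turned to 0.00819 for Nkd2 and 0.0295 for Fzd6; without control replicate 1, to -0.0193 for Ctnnb1, 0.00483 for Sox7, -0.0498 for Cldn5 and 0.140 for Lrp5. Without Zeb1-CKO replicate 1 it turned to 0.00571 for Sox7, and without Zeb1-CKO replicate 2 to -0.0289 for Csnk1d and 0.0507 for Fzd4. Scaling to endothelial markers turned Znrf3 to -0.0386 and Csnk1d to -0.0160. For low genes such as Axin2, Notum and Rnf43, 1 fragment is worth most FPKM in control 2, the shallowest library by its estimated depth.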
